A study of Rattus norvegicus with 17 samples.

Results

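Complement genes were measured in the liver of rats with bile duct ligation, comparing the 3 chains of C1q, which tissue macrophages make, with components that hepatocytes secrete into plasma. The genes were C1qa, C1qb, C1qc, C1s, C3, C5, C6, C9 and Cfb, taken by symbol from the array's platform annotation, with a probe set admitted only if it was annotated to 1 of these symbols alone. Of the 9 symbols, 8 had a probe set of their own, with 1 probe set each, and all 8 probe sets passed the filter on low values that kept 9736 genes. Cfb had none, because its 4 probe sets are also annotated to the neighbouring gene C2, and these are given separately as Cfb or C2.

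Liver RNA came from 17 rats, with 1 array of the Affymetrix Rat Genome 230 2.0 type per rat. In the ligated ghrelin group (5 rats) the bile duct was tied and ghrelin, a stomach peptide hormone, was infused at 10 µg/kg/day from a minipump under the skin. The ligated saline group (6 rats) had the same ligation with saline in the pump, and the sham group (6 rats) had an abdominal incision with saline in the pump. Surgery took place at week 7 and rats were killed at week 9, so all values are from 2 weeks after surgery. No sham rats with ghrelin are among the groups analysed here, and strain and sex are not given in the labels. The titles of all arrays carry the name of the ligation, and groups were taken from the source of each sample. Values are log2 GCRMA intensities, and a level is compared between groups within a probe set, not between probe sets.

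Complement is a cascade of plasma proteins that marks and lyses targets. C1q binds antibody or surface patterns and activates the proteases C1r and C1s, which cleave C4 and C2, while mannose-binding lectins with MASP proteases do the same in the lectin pathway. Both lead to cleavage of C3, which the alternative pathway amplifies through factor B, and then to C5, whose larger fragment assembles with C6, C7, C8 and C9 into the membrane attack complex. The liver is the main source of plasma complement, whereas C1q comes largely from macrophages and related cells.

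The upstream sequences of 5 of the 8 genes were matched in RefSeq (build GRCr8), and 4 are printed because they belong to genes that were called in opposite directions, C1qa, C1qb and C5 higher and C6 lower. Each is the 250 bases before the annotated start, read 5′ to 3′ on the strand of the gene. The coordinates are chr5:154419934-154420183 (minus strand) for C1qa, chr5:154407828-154408077 (minus) for C1qb, chr3:38759469-38759718 (minus) for C5 and chr2:55573383-55573632 (plus) for C6. C1qb, C1qc and C1qa lie next to each other on chromosome 5 with 0 genes between them. Capitals mark matches, on either strand, to the ETS core GGAAGT, the interferon response half-site GAAACT, the HNF1 half-site GTTAAT and the C/EBP core TTGCNNAA, which were picked after the sequences were seen.
C1qa: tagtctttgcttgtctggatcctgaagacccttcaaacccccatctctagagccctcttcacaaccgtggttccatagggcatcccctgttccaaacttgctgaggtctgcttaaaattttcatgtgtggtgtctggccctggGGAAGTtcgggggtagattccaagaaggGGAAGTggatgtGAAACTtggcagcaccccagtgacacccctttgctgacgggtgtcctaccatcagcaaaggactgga
C1qb: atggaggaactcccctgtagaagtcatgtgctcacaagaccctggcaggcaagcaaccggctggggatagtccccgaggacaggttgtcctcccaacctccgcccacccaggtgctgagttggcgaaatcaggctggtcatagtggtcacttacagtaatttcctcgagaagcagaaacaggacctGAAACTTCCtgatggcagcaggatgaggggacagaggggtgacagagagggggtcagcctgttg
C5: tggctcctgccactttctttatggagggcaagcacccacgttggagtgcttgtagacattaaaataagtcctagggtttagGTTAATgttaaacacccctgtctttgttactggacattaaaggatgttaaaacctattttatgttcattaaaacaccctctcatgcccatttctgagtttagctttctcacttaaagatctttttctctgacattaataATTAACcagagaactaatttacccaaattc
C6: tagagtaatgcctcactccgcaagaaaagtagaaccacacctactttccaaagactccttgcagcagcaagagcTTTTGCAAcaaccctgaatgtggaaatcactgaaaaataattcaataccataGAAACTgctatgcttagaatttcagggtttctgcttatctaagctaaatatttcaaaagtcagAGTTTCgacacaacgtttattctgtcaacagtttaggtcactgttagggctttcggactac

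The C1qa window held GGAAGT at 107 to 102 and at 79 to 74 bases before the start, and GAAACT at 67 to 62. The C1qb window held GAAACT at 64 to 59 bases and, overlapping it, ACTTCC, the reverse complement of GGAAGT, at 61 to 56. Of 33469 rat promoters of the same length, 19.2% held the ETS core, 14.1% the interferon half-site and 3.07% both. ETS factors include PU.1, a regulator of macrophage genes. The C5 window held the HNF1 half-site, named for a hepatocyte factor and present in 6.45% of promoters, at 169 to 164 and on the opposite strand at 30 to 25. The C6 window held the C/EBP core, present in 9.22%, on the opposite strand at 176 to 169 bases, and the interferon half-site at 124 to 119 and, on the opposite strand, at 61 to 56. The C3 window, not printed because C3 was not called, held the C/EBP core at 104 to 97 bases. Because the motifs were picked after the sequences were seen, the shares cannot show that the matches are unusual. All these matches describe letters only, and binding was not measured.

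In ligated saline livers all 3 chains of C1q were more than 2-fold higher than in sham livers, C5 and the protease C1s were higher too, and C6 was 2.89-fold lower. Against sham, ligated saline livers had 5 of the 8 genes called higher (C1qa, C1qb, C1qc, C1s, C5), 1 lower (C6) and 2 not called (C3, C9) at a limma adjusted p under 0.05. Over all 9736 genes 64.7% were called, 37.5% higher and 27.2% lower, so a call alone does not set these genes apart. The median change of the 8 genes was 0.50 on the log2 scale, against 0.07 over all genes.

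C1qa, the A chain of C1q, had levels of 12.46, 11.86, 12.04, 12.53 and 12.54 in the 5 ligated ghrelin rats. It ran at 12.39, 12.54 and 12.73 (lowest, median and highest) in ligated saline rats, and at 10.77, 11.31 and 11.66 in sham rats. Every ligated rat of both groups lay above every sham rat. The change was 1.26 ± 0.144 (SE) for ligated saline minus sham, a 2.39-fold difference (limma adjusted p = 1.35e-06), and for ligated ghrelin minus sham its 95% interval was 0.68 to 1.32 (SE 0.151, adjusted p = 3.83e-05).

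C1qb, the B chain, had levels of 12.00, 11.33, 11.32, 11.98 and 12.07 in ligated ghrelin rats. The lowest, median and highest levels were 11.93, 12.13 and 12.34 in ligated saline rats and 10.23, 10.70 and 11.04 in sham rats. No ligated rat overlapped the sham range. Ligated saline exceeded sham 2.84-fold (95% interval 1.17 to 1.84 on the log2 scale, SE 0.157, limma adjusted p = 5.05e-07), and ligated ghrelin exceeded sham by 1.10 ± 0.165 (adjusted p = 3.52e-05).

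C1qc, the C chain, had levels of 11.81, 11.19, 11.19, 12.00 and 12.03 in ligated ghrelin rats. Its lowest, median and highest were 11.60, 11.78 and 11.90 in ligated saline rats and 9.76, 10.21 and 10.79 in sham rats, again without overlap between ligated and sham rats. The changes were 1.48 ± 0.179 for ligated saline minus sham, or 2.78-fold (limma adjusted p = 2.60e-06), and 1.36 ± 0.188 for ligated ghrelin minus sham (adjusted p = 1.59e-05). In all 3 chains ligated ghrelin rats 2 and 3 lay below all 6 ligated saline rats, and sham rat 3 had the lowest value. Of all genes, 44.5% had ligated saline and sham groups without overlap, and 39% had ligated ghrelin and sham groups without overlap.

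**Figure D1:**
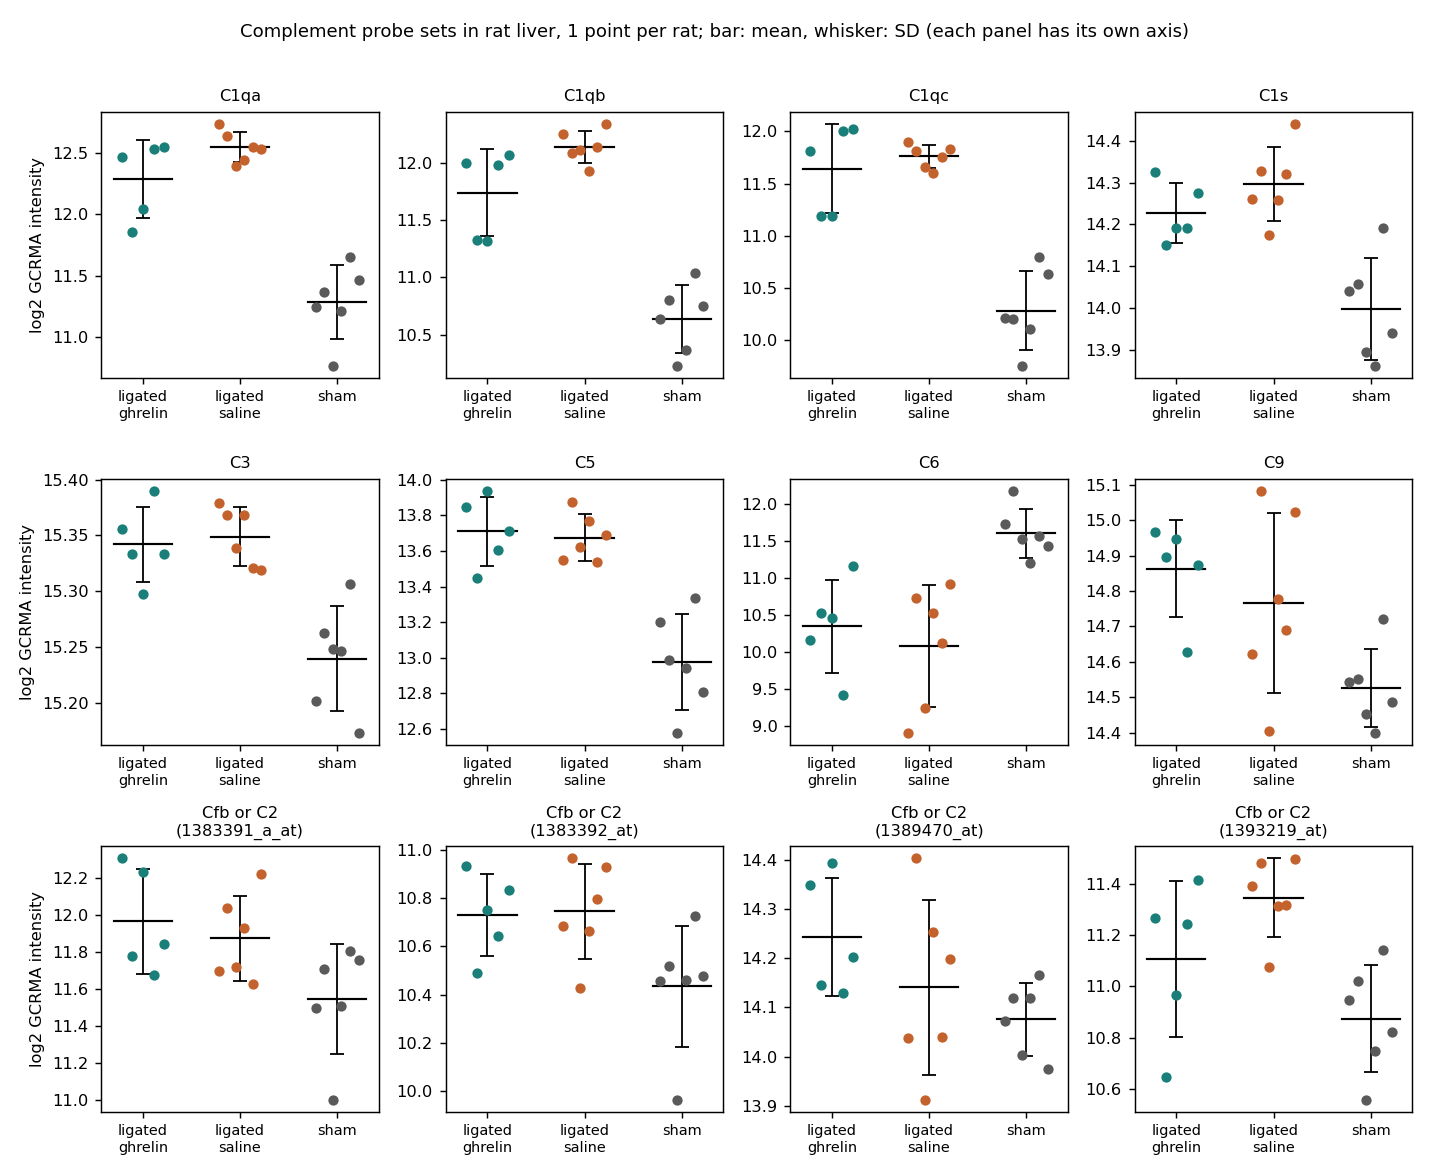
Log2 GCRMA intensity of the 8 complement genes and of the 4 probe sets shared by Cfb and C2, with 1 point per rat, the mean as a bar and the SD as a whisker for 5 ligated ghrelin, 6 ligated saline and 6 sham rats. The C1q panels show both ligated groups above all sham rats, and the C6 panel shows them below (each panel has its own axis).

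The macrophage markers measured on the same arrays moved with C1q. Of 15 measured markers of macrophages and Kupffer cells, the macrophages of the liver sinusoids, 13 were called higher, 1 lower (Cd14) and 1 not called (Mrc1) in ligated saline livers, with a median change of 1.15. Ctsb, a lysosomal protease, was higher by 0.64 ± 0.0671 (limma adjusted p = 5.24e-07) and Cd5l, a protein secreted by macrophages, by 1.08 ± 0.178 (adjusted p = 6.06e-05). Their summed intensity ran from 41827 to 60000 in ligated ghrelin, from 49921 to 68666 in ligated saline and from 23476 to 35291 in sham livers. All 15 passed the filter, and 3 others (Marco, Timd4, Msr1) were not analysed here. In whole liver, more macrophages and more C1q RNA per macrophage cannot be told apart, and the part of the markers in the C1q change was not tested.

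Of 15 measured hepatocyte markers, 0 were called higher, 4 lower and 11 not called in ligated saline against sham livers, with a median change of -0.05. The 4, named after their values were seen, were Hnf4a (-0.79, limma adjusted p = 2.83e-06), a hepatocyte transcription factor, Rbp4 (-0.44, adjusted p = 3.86e-05), F2 (-0.21, adjusted p = 0.00262) and Ttr (-0.20, adjusted p = 0.0109). The summed intensity of these markers ran from 412285 to 435857 in ligated ghrelin, from 389718 to 434436 in ligated saline and from 423893 to 448928 in sham livers. Alb, serum albumin, averaged 15.85 ± 0.0456 in ligated ghrelin, 15.84 ± 0.0299 in ligated saline and 15.88 ± 0.0397 in sham livers (SD, n = 5, 6 and 6). Alb was the brightest probe set on 16 of 17 arrays, at the top of the measured scale. Ahsg, fetuin A, also bright at 15.32 in ligated saline and 15.33 in sham livers, did not pass the test (change -0.02, limma adjusted p = 0.822). All 10 stellate cell and fibroblast markers and all 6 measured bile duct markers were called higher in ligated saline livers, with median changes of 2.59 and 5.28. For Cftr, Sctr and Thy1 every sham rat lay below the filter level of 3.95 (highest 3.15, 3.03 and 3.72). They passed the filter through ligated rats alone, so the filter itself favoured a higher call for them. Of 9 genes listed for lymphocytes 4 were measured, and 3 of these were higher (Cd4, Lck and Ptprc). Cd3e was not called (0.14, limma adjusted p = 0.686), and Cd3g, Cd8a, Cd79b and Ms4a1 fell below the filter. A change in lymphocytes is not read from this count. Of the sinusoidal endothelial markers 2 of 6 were higher and 1 lower. In the plot of means per rat, C3, C5, C6 and C9 are averaged although C5 was higher and C6 lower, so the overlap of that mean does not describe the single genes. That set, which leaves out C1s, was formed after the values were seen.

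**Figure D2:**
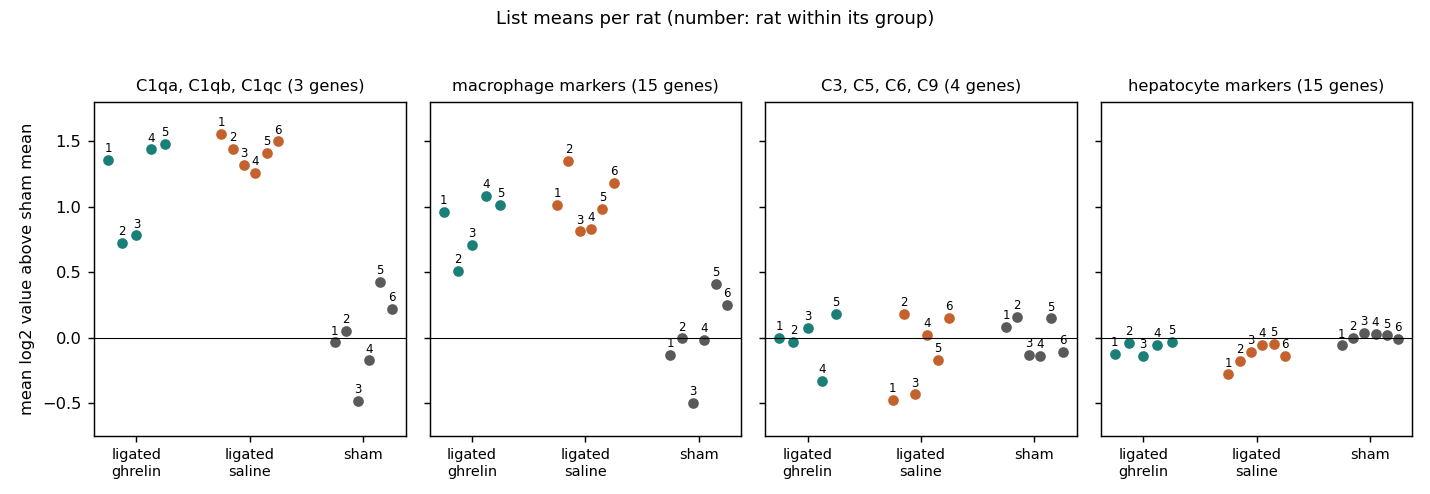
Mean log2 value above the sham mean for each rat, over the 3 C1q genes, 15 macrophage markers, the hepatocyte complement genes C3, C5, C6 and C9, and 15 hepatocyte markers, with the rat's number within its group beside each point. The C1q and macrophage panels place every ligated rat above every sham rat, with ligated ghrelin rats 2 and 3 the lowest of the ligated rats, and the other panels overlap.

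C1s, the protease that C1q activates, had levels of 14.33, 14.15, 14.19, 14.19 and 14.27 in ligated ghrelin rats. In ligated saline rats the lowest, median and highest were 14.17, 14.29 and 14.44, against 13.86, 13.99 and 14.19 in sham rats. The groups overlapped at the highest sham rat. The change was 0.30 ± 0.0694 for ligated saline minus sham (limma adjusted p = 0.00134) and 0.23 ± 0.0728 for ligated ghrelin minus sham (adjusted p = 0.0141). With array medians set equal C1s was not called, at 0.11 (adjusted p = 0.200) for ligated saline minus sham and 0.11 (adjusted p = 0.247) for ligated ghrelin minus sham.

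C3, the component on which all 3 pathways converge, had levels of 15.36, 15.33, 15.30, 15.39 and 15.33 in ligated ghrelin rats. Its lowest, median and highest were 15.32, 15.35 and 15.38 in ligated saline rats and 15.17, 15.25 and 15.31 in sham rats. Although no ligated saline rat overlapped sham, C3 was not called, with a change of 0.11 ± 0.0497 (limma adjusted p = 0.0658), and ligated ghrelin minus sham gave 0.10 ± 0.0521 (adjusted p = 0.108). The missing call depended on the settings in both ligated groups. Without a filter C3 was called in ligated saline (limma adjusted p = 0.000394) and in ligated ghrelin (0.00133). It was also called with a trend in the prior variance (0.00786 and 0.0183). These C3 levels lay close to the highest value on each array, 15.79 to 15.92, and the ligated saline change turned to -0.08 with array medians set equal (adjusted p = 0.188).

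C5, the component cleaved to start the terminal pathway, had levels of 13.85, 13.45, 13.93, 13.60 and 13.71 in ligated ghrelin rats. Its lowest, median and highest were 13.54, 13.66 and 13.88 in ligated saline rats and 12.58, 12.97 and 13.34 in sham rats. All ligated rats exceeded all sham rats. C5 was higher by 0.70 ± 0.119 in ligated saline than in sham livers, or 1.62-fold (limma adjusted p = 8.94e-05), and by 0.73 ± 0.125 in ligated ghrelin than in sham livers (adjusted p = 0.000124).

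C6, the next component to join the membrane attack complex, went the other way. It had levels of 10.16, 10.53, 10.47, 9.42 and 11.16 in ligated ghrelin rats. Ligated saline rats had 8.91, 10.32 and 10.93 (lowest, median and highest), against 11.20, 11.55 and 12.18 in sham rats. All ligated rats lay below all sham rats, and the spread was wide in ligated saline (SD 0.826) against sham (SD 0.329). The change was -1.53 ± 0.338 for ligated saline minus sham (limma adjusted p = 0.000887) and -1.26 ± 0.354 for ligated ghrelin minus sham (adjusted p = 0.00675).

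C9, the pore-forming last component, had levels of 14.97, 14.90, 14.95, 14.63 and 14.87 in ligated ghrelin rats. Its lowest, median and highest were 14.40, 14.73 and 15.08 in ligated saline rats and 14.40, 14.52 and 14.72 in sham rats. The ligated saline and sham ranges overlapped, and C9 was not called there (change 0.24 ± 0.106, limma adjusted p = 0.0598). Without ligated saline rat 3 the change was 0.31 (adjusted p = 0.0122), and without sham rat 5 it was 0.28 (adjusted p = 0.0396), whereas array medians set equal gave 0.05 (adjusted p = 0.712). Ligated ghrelin minus sham was called, at 0.34 ± 0.112 (adjusted p = 0.0179), and the call was lost with array medians set equal (0.22, adjusted p = 0.143).

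C6 and C9 varied together among ligated saline rats. Rats 1 and 3 had the lowest C6 (8.91 and 9.24) and C9 (14.62 and 14.40), while rats 2 and 6 had the highest C6 (10.73 and 10.93) and C9 (15.08 and 15.02). Over 17 arrays with group means subtracted, Pearson's r was 0.75 for C6 with C9, -0.08 for C1qa with C6 and 0.90 to 0.95 among the C1q genes. For C1s it was 0.58 with C1qa, 0.70 with C1qb, 0.55 with C1qc and 0.70 with C9. These arrays share 1 scaling, and the coefficients are given as a description. The bile duct markers were highest in ligated saline rats 1, 3 and 5, at mean values of 5.74, 5.67 and 5.42 above sham, against 4.05, 4.45 and 4.34 in rats 2, 4 and 6, and rats 1, 3 and 5 had the lowest C6 and the lowest C9 of the group. The part of these markers in the C6 and C9 values was not tested. Both genes lie on chromosome 2, with 22 genes between them.

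Against sham, ligated ghrelin livers had 6 of the 8 genes called higher, 1 lower and 1 not called (C3), where 56.2% of all genes were called, 35% higher and 21.2% lower. This comparison shares its sham rats with the one above, so the counts are not independent.

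The 4 probe sets of Cfb or C2 did not all pass the test. Probe set 1393219_at was called in ligated saline against sham (0.47 ± 0.128, limma adjusted p = 0.00415), as was 1383392_at (0.31 ± 0.122, adjusted p = 0.0354). Probe sets 1383391_a_at (0.33, adjusted p = 0.0705) and 1389470_at (0.06, adjusted p = 0.516) were not. In ligated ghrelin against sham only 1383391_a_at was called (0.42 ± 0.158, adjusted p = 0.0342). The ligated ghrelin call of 1383391_a_at was lost in 7 of 24 other settings (adjusted p up to 0.126), the ligated saline call of 1383392_at in 6 (up to 0.394) and that of 1393219_at in 1, array medians set equal (0.0579). Calls were also gained. For ligated ghrelin minus sham 1383392_at was called in 6 of 24, and 1389470_at and 1393219_at in 1 each. For ligated saline minus sham 1383391_a_at was called in 2. Factor B and C2 are related proteases encoded side by side on chromosome 20, and neither gene is assigned a change here.

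The rest of the cascade was described from lists of 53 complement genes, of which 36 were measured, with a probe set of their own that passed the filter. Fcnb, Cd46, Cd55 and Cr2 fell below the filter, and C2, C4a, C4b, C7 and Cfb had only probe sets shared with a second gene. In ligated saline against sham livers 16 of the 36 were called higher, 8 lower and 12 not called, with a median change of 0.21. The 28 that are not among the genes above had 11 higher, 7 lower and 10 not called, at a median of 0.08, close to the 0.07 of all genes. Calls covered 64.7% of all genes, 37.5% higher and 27.2% lower, so these counts alone do not set complement genes apart.

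Among 11 recognition proteins and proteases, 6 were called higher and 3 lower, and with array medians set equal 3 were higher, the C1q genes. The classical pathway members C1r (0.34 ± 0.083, limma adjusted p = 0.00206) and C1s were called higher, and with array medians set equal neither was (C1r adjusted p = 0.125). The mannose-binding lectins fell, by 0.70 for Mbl1 (adjusted p = 0.000594) and by 0.51 for Mbl2 (adjusted p = 0.00268). Their protease Masp2 fell by 0.48 (adjusted p = 0.00978), and Masp1 was called higher at 0.28 (adjusted p = 0.0294), a call lost in 8 of 24 other settings. In the alternative pathway Cfp, properdin, which stabilizes the C3 convertase, was the 1 called gene of 3 (0.59 ± 0.158, adjusted p = 0.00382).

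Of 6 terminal components, C5 was the 1 called higher and 3 were lower, with 2 higher under quantile normalization. Beside C6, the C8 subunits C8g (-1.15 ± 0.130, limma adjusted p = 1.13e-06) and C8b (-0.76 ± 0.235, adjusted p = 0.0102) fell, and C8a stood at -0.07 (adjusted p = 0.458). Among 9 regulators 2 rose, Cr1l (0.82 ± 0.0877, adjusted p = 6.14e-07), a membrane regulator of C3, and Clu (0.61 ± 0.0894, adjusted p = 1.90e-05), clusterin, which binds terminal complexes. Vtn, vitronectin, fell by 0.43 (adjusted p = 0.000196) and Cpn1, a carboxypeptidase that inactivates C3a and C5a, fell by 0.37 (adjusted p = 0.00100), with 4 regulators called lower when array medians were set equal.

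Of 7 measured receptors, 6 rose in ligated saline livers, with a median change of 1.21, and C1qbp alone was not called (-0.02, limma adjusted p = 0.832). With array medians set equal C1qbp was the 1 receptor called lower. Itgax (1.93 ± 0.227, adjusted p = 1.84e-06) and Itgb2 (1.21 ± 0.158, adjusted p = 5.34e-06) encode the chains of complement receptor 4. C5ar1, the receptor for C5a, rose by 1.90 ± 0.191 (adjusted p = 3.32e-07). Leukocytes carry these receptors, and the macrophage and neutrophil markers rose in the same livers. The 3 neutrophil markers that passed the filter were all called higher, with a median change of 3.27. Of these, Csf3r passed through ligated rats alone, as its highest sham value was 2.55, and the neutrophil marker Cxcr2 fell below the filter. The part of the macrophage and neutrophil markers in the receptor change was not tested.

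Against sham, ligated ghrelin livers had 16 of the 36 complement genes called higher, 5 lower and 15 not called, with a median change of 0.20. Of all genes 56.2% were called there, 35% higher and 21.2% lower. Of recognition genes and proteases 6 were higher and 1 was lower, Mbl1 (-0.42, limma adjusted p = 0.0323). The Mbl1 call was lost in 5 of 24 other settings, quantile normalization (adjusted p = 0.0633) and 4 that left out 1 rat. Masp1, among those higher, lost its call in 7 of 24. Array medians set equal gave 3 higher and 3 lower. The terminal components had 2 higher, C5 and C9, and 2 lower, C6 and C8g (-0.71 ± 0.136, adjusted p = 0.000353). The regulators had 3 higher, Cr1l (0.68), Clu (0.45) and C4bpa (0.26, adjusted p = 0.0179, lost with medians equal at 0.224), and 2 lower, Vtn (-0.32, lost under quantile normalization at adjusted p = 0.0587) and Cd59b (-0.35, adjusted p = 0.0112). Of the receptors 4 were higher, C5ar1 (1.70), Itgax (1.14), Cd93 (1.06) and Itgb2 (1.05). Itgam, a chain of complement receptor 3, stood at 1.03 (adjusted p = 0.0501) and C3ar1, the C3a receptor, at 0.33 (adjusted p = 0.103).

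**Figure D3:**
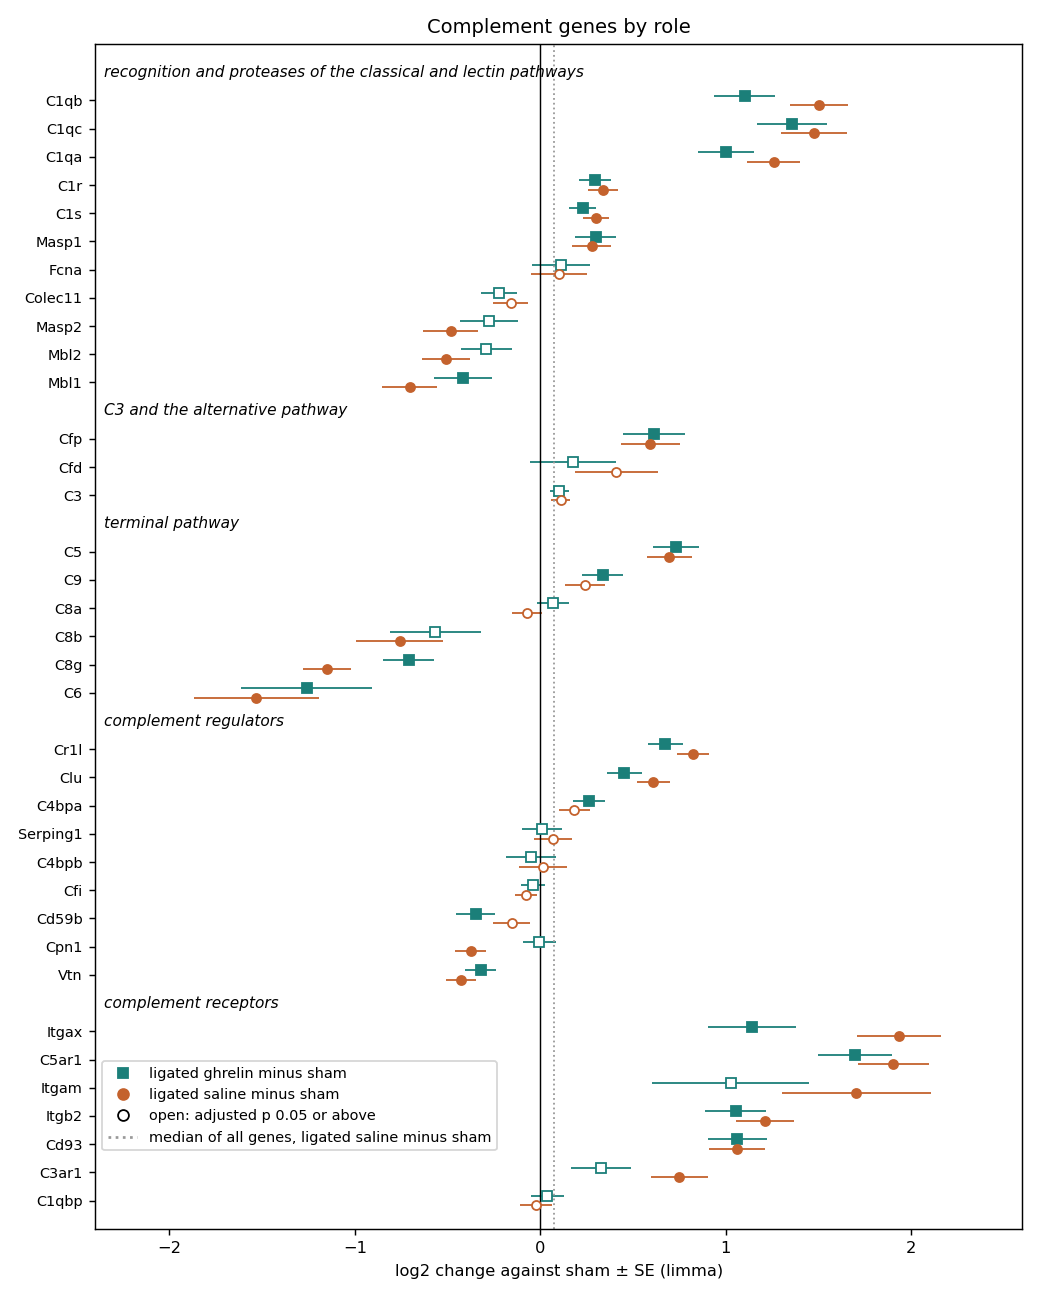
Log2 change ± SE against sham for 36 complement genes by role, with squares for ligated ghrelin minus sham, circles for ligated saline minus sham, and filled symbols for limma adjusted p under 0.05. In ligated saline livers C1q and 6 of 7 receptors lie to the right, while C6, C8g, C8b and the mannose-binding lectins lie to the left.

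In ligated ghrelin against ligated saline livers 0 of the 8 were called by limma, where 2.34% of all genes were called, 1.76% in the higher and 0.585% in the lower direction. C1qb, 1 of the 8, had an unadjusted p under 0.05. The count was 0 under each of the 24 other settings fitted, all with limma. None of the 8 had groups without overlap, against 4.53% of all genes. The background itself moved with single arrays: 355 of all probe sets were called, and leaving out 1 array gave between 35, without ligated ghrelin rat 2, and 653, without ligated saline rat 4.

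C1qb was lower by 0.40 in ligated ghrelin livers (95% interval -0.75 to -0.05, unadjusted p = 0.0263, limma adjusted p = 0.173), with all 5 ghrelin rats below the ligated saline mean. C1qa differed by -0.26 (-0.58 to 0.06, adjusted p = 0.336), also with 5 of 5 rats below that mean. C1qc differed by -0.12 (-0.51 to 0.28, adjusted p = 0.762), with 2 of 5 rats below it. Without ligated ghrelin rat 2 the change was -0.30 for C1qb, -0.15 for C1qa and 0.00 for C1qc. Without ligated ghrelin rat 3 it was -0.30, -0.20 and 0.00. The size thus depends on these rats for C1qb as well as for C1qa and C1qc.

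Ligated ghrelin rats 2 and 3 were also the lowest ligated rats for the macrophage markers, with mean values 0.51 and 0.71 above sham, against 0.96, 1.08 and 1.01 in rats 1, 4 and 5. The RNA of rat 3 had the largest difference between the 3′ and 5′ control probe sets of the 17 arrays, 2.62 log2 units for beta-actin and 0.62 for GAPDH. Rat 2 had 2.13 and 0.28. Ligated saline rats ran from 1.75 to 2.05 and from 0.04 to 0.20, and sham rats from 1.86 to 2.37 and from 0.02 to 0.27. The part of either in the C1q values was not tested.

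For the components other than C1q the intervals of ligated ghrelin minus ligated saline all included 0, and that of C6 was the widest. They were -0.22 to 0.08 for C1s, -0.12 to 0.10 for C3, -0.23 to 0.30 for C5 and -0.14 to 0.33 for C9. For C3 and C9 they reached past the size of the ligated saline minus sham change, 0.11 and 0.24. For C6 the change was 0.27 with an interval of -0.48 to 1.02, whose upper end is a 2.03-fold difference. Its size depended on single rats, from 0.04 without ligated saline rat 1 to 0.50 without ligated ghrelin rat 4, and was not called in either. Among the other complement genes, Cpn1 was the 1 called (0.37 ± 0.0879, limma adjusted p = 0.0430). This call was lost in 15 of 24 other settings, 13 of them leaving out 1 rat, with adjusted p from 0.0222 to 0.120 over all 24. Its mean level was 11.16 in ligated ghrelin, 10.79 in ligated saline and 11.16 in sham livers. C8g, at 0.44, had the largest change of the 6 terminal components and was not called (adjusted p = 0.0838).

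**Figure D4:**
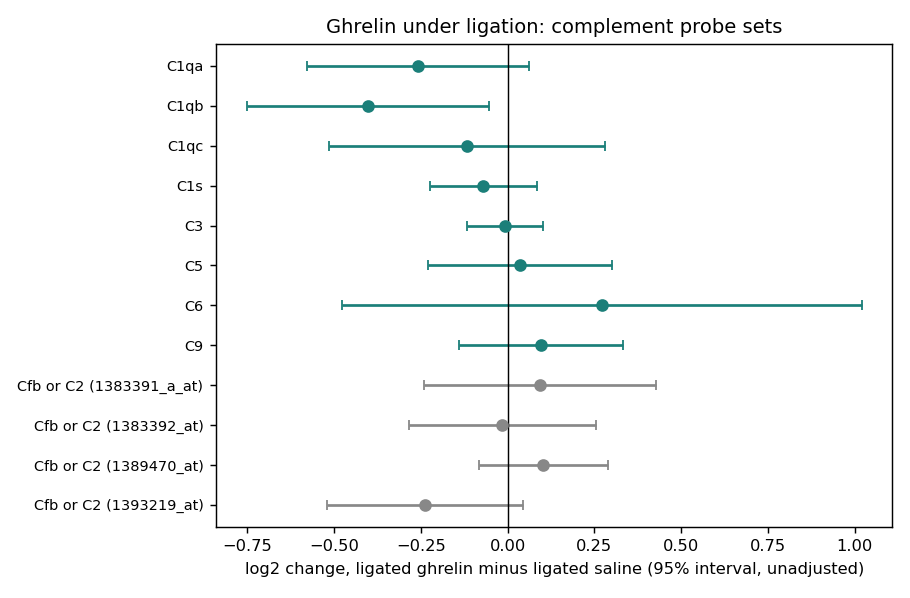
Log2 change of ligated ghrelin minus ligated saline, with unadjusted 95% intervals from limma, for the 8 complement genes and in grey the 4 probe sets shared by Cfb and C2. The interval of C1qb alone lies below 0, and the interval of C6 is the widest.

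The genes closest to each member in their spread within groups were found by Pearson's r over 17 arrays with group means subtracted. For C1qa they were C1qc (0.95), Aif1 (0.93), a macrophage marker, and Slc31a2 (0.92), and for C1qc they were RT1-DMa (0.96), a class II antigen-loading gene, C1qa (0.95) and Aif1 (0.93). For C1qb they were C1qc (0.92), C1qa (0.90) and Slc31a2 (0.88). C9 was closest to Serping1 (0.95), the C1 inhibitor, C4bpb (0.94), a chain of the C4b-binding protein, and Serpina3n (0.92). C6 was closest to C5l1 (0.92), Masp2 (0.89) and Xkr8 (0.88). C1s was closest to Il10ra (0.88), Znfx1 (0.85) and Folr2 (0.84), and C5 to Jak3 (0.84), Fgl1 (0.82) and Marveld1 (0.81). C3 had the weakest, Fam120a (0.73), Ankrd17 (0.73) and Arrb1 (0.72).

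The scaling between arrays bears on the smaller changes. Medians per array ran from 15.4 to 17.5 intensity units in the 11 ligated arrays and from 14.2 to 14.7 in sham arrays. The median change over all probe sets for ligated saline minus sham was 0.04 as deposited, -0.11 when arrays were quantile normalized and -0.15 when their medians were set equal. Of all called probe sets the share called higher was 55.7%, 42.0% and 39.0% under these scalings. The C1q genes and C5 stayed called higher, and C6 lower, under all 3.

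**Figure D5:**
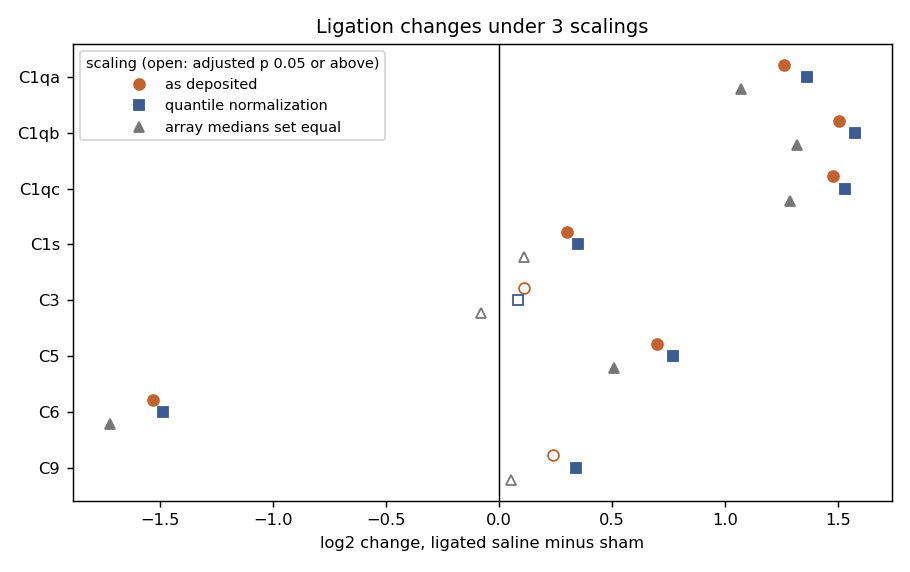
Log2 change of ligated saline minus sham for the 8 genes under 3 scalings, with open symbols where the limma adjusted p is 0.05 or above. The C1q genes, C5 and C6 keep their side of 0 and their calls, whereas C1s, C3 and C9 change call or sign.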

How the data were processed

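Liver RNA of 17 rats was measured, 1 array per rat. The authors deposited 1 intensity per probe set and array, on a linear scale, made with GCRMA, per the submitters' processing notes; the version is not given in the sources used here. Log2 was taken with no pseudocount. Of 31042 probe sets that are not controls, 15965 exceeded the median of all deposited values (15.5) on at least 5 arrays and were kept. Where a gene had several kept probe sets listing it alone, the one brightest on average stood for it, which gave 9736 genes. Symbols came from the platform annotation, in which 20826 probe sets have 1 symbol, 436 several and 9780 none listed.

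The 3 group means were fitted with limma 3.58.1 (R 4.3.3) over all kept probe sets, without covariates, with 14 residual and 2.54 prior degrees of freedom. P-values were adjusted by Benjamini-Hochberg over the kept probe sets and called under 0.05. The fit was tested on simulated data. The labels give no batch, and the number of arrays limits the precision. Alternatives were the filter, the scaling, the variance model, the samples fitted and leaving out each array.

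The genes, lists and tests were chosen with earlier results of these data known. All member probe sets are described; of other complement genes, the 3 with the lowest p among those called per list and comparison and any making up a count of 5 or fewer are eligible; of the markers, the 2 brightest per list. Colec11, Fcna and others not called are shown in the plot only. Stellate cell, bile duct and neutrophil markers are given as counts, apart from those named for how they passed or failed the filter.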

Additional observations from a re-analysis of the deposited data

Results flagged for a closer look

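The values of 12 probe sets in 3 groups each were examined for a single array far from the rest, 36 groups in all, and 2 were found, where chance flags about 1 in 20. In the ligated ghrelin group, rat 4 had the lowest C9, at 14.63, with the nearest rat at 14.87 and the highest at 14.97. The same rat had the lowest C6 of its group, 9.42. In the sham group, rat 3 had the lowest value of the Cfb or C2 probe set 1383392_at, at 9.96, with the nearest at 10.46 and the highest at 10.73. That rat also had the lowest macrophage marker mean of the sham group, at -0.50 relative to the sham mean, and the part of this in the value was not tested.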

How the results depend on the processing

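In all 24 alternatives the changes of C1qa, C1qb, C1qc, C5 and C6 against sham kept their direction and call in both ligated groups. For ligated saline minus sham the leave-one-out values ran from 1.16 to 1.33 for C1qa, 1.42 to 1.58 for C1qb, 1.37 to 1.58 for C1qc and -1.70 to -1.30 for C6. With array medians set equal, 3 recognition genes were called higher in ligated saline livers, 4 regulators lower and 1 receptor lower; against sham in ligated ghrelin livers 3 recognition genes were higher, 3 lower and 1 terminal gene higher. With quantile normalization 2 terminal genes were higher in ligated saline livers, and in ligated ghrelin livers 0 recognition genes and 1 regulator were lower. C3 turned to -0.08 (ligated saline minus sham) and -0.018 (ligated ghrelin minus sham) with medians equal. For ligated ghrelin minus ligated saline C3 turned to 0.0046 with quantile normalization, 0.061 with medians equal and 0.0051 with array weights, and ran from -0.019 to 0.0041 leaving out 1 array. C5 ran from -0.020 to 0.10 there. Probe set 1389470_at turned to -0.12 (ligated saline minus sham) with medians equal. Probe set 1383392_at (ligated ghrelin minus ligated saline) turned to 0.053 with medians equal and 0.018 with array weights, and ran from -0.079 to 0.045 leaving out 1 array. The cause was not tested. C3 was called against sham without a filter (limma adjusted p = 0.000394 in ligated saline, 0.00133 in ligated ghrelin) and with a trend in the prior variance (0.00786 and 0.0183). For ligated saline minus sham C9 was called under the same settings (0.0453 and 0.0441) and with quantile normalization (0.00519), while medians equal gave 0.05 (0.712). Counting the 4 shared probe sets, an alternative added after the data were seen, gave 7 probe sets higher in ligated saline than in sham livers. Calls over all probe sets for ligated ghrelin minus ligated saline numbered 355, against 154 without a filter, 541 with quantile normalization, 611 with medians equal 118 with those groups alone and 35 to 653 leaving out 1 array. Without a filter, ligated saline minus sham gave 22230 calls against 9825, and ligated ghrelin minus sham 19914 against 8534. Averaging probe sets of a gene changes nothing here, since each gene has 1. No paired analysis was possible because the groups share no replicate numbers in the labels.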
